A study of Mus musculus with 50 samples.

Results

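The genes described here are 9 markers of microglia, Cx3cr1, P2ry12, Csf1r, Trem2, Tmem119, C1qa, C1qb, C1qc and Aif1. They were chosen by symbol as known markers of these cells and make up 9 of the 24552 genes in the deposited count tables. All 9 were found in both tables and passed the filter on low counts in every comparison. RNA came from nucleus accumbens (NAc) punches of RiboTag (RT) mice, in which Cre recombinase puts an HA tag on the ribosomal protein Rpl22, so that an anti-HA immunoprecipitation (IP) pulls down the mRNA on ribosomes of the Cre-expressing neurons. The RT;D1-Cre and RT;D2-Cre lines express Cre in medium spiny neurons (MSNs) with the D1 or the D2 dopamine receptor, driven by BAC transgenes. No Cre was directed at microglia.

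The 28 IP samples and 18 inputs came from C57BL/6 mice aged 8 to 12 weeks, all carrying RT and either D1-Cre or D2-Cre. Control mice (Con) were caged with their own strain. Per the labels the others met an aggressive CD1 male for 10 min a day over up to 10 days (the study’s methods give a shorter daily bout) and were sorted by a social interaction test into susceptible (Sus) and resilient (Res). Every library pooled 2 mice, and each input was the part of the homogenate that was left over from the IP of the same pool. The D1 line had 4 Con, 4 Res and 5 Sus IP samples, the D2 line had 5 of each, and both lines had 3 inputs per stress group. A further 4 IP samples came from male RT; Sirt1-floxed; D1-Cre mice without defeat, whose age the labels do not give. The IP and input libraries held 18384265 to 31009626 counts on genes, the Sirt1-KO libraries 22174187 to 31785984. Values are CPM (the share of a library’s counts that fell on a gene, on the usual CPM scale) after TMM, a normalisation that sets most genes to no change, and p-values come from edgeR's quasi-likelihood test over all genes. They measure the spread between pools of 2 mice. The pools came from several defeat batches and sequencing runs that are not given per library, so batch and group cannot be told apart.

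Microglia are the resident macrophages of the brain. Their processes survey the tissue, respond to ATP and ADP released by damaged cells, and remove synapses and debris, partly through complement tags laid down by C1q. They depend on signals from neurons, among them Cx3cl1, which binds Cx3cr1, and Il34, which with Csf1 keeps microglia alive through Csf1r.

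By role, the 9 genes encode 4 receptors, 1 surface protein of less settled function, the 3 chains of C1q and 1 cytoplasmic protein. Cx3cr1 (chromosome 9, 119901616 to 120069879, minus strand, GRCm38) is the fractalkine receptor. P2ry12 (chromosome 3, 59216272 to 59262871, minus strand) is the ADP receptor that guides microglial processes. Csf1r (chromosome 18, 61100598 to 61132149, plus strand) is the receptor for Csf1 and Il34. Trem2 (chromosome 17, 48346401 to 48354147, plus strand) is a lipid-sensing receptor that signals through the adaptor Tyrobp. Tmem119 (chromosome 5, 113793729 to 113800516, minus strand) is a membrane protein used to mark resident microglia. C1qa, C1qb and C1qc are neighbours on the minus strand of chromosome 4, between 136880129 and 136898803. Aif1 (chromosome 17, 35170991 to 35176068, minus strand) encodes the calcium-binding protein Iba1, the usual histological stain for microglia. P2ry12 lies inside Med12l on the opposite strand with 9 exon bases in common, and Csf1r shares 873 exon bases with Hmgxb3 on the opposite strand. The strand setting of the counting is not given in the sources used here, so reads from those stretches cannot be told apart.

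In the inputs the order of the genes was read per length, as CPM per kilobase of the principal transcript. The C1q chains were highest, with C1qa at 25.9 ± 2.46, C1qb at 23.5 ± 1.98 and C1qc at 23.3 ± 2.10 CPM per kb (SD, n = 18), and these 3 levels lay within the spread of each other. Csf1r followed at 18.1 ± 1.15, P2ry12 at 14.8 ± 1.24, Cx3cr1 at 11.2 ± 0.808 and Tmem119 at 6.99 ± 0.655 CPM per kb. Trem2 at 5.55 ± 0.769 and Aif1 at 4.18 ± 0.739 CPM per kb came last. With the length of all annotated exons Trem2 fell below Aif1, at 1.22 against 2.39 CPM per kb, and C1qc stood at 14.5, so the order of these depends on the gene model.

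The sequences just upstream of 3 of these genes are shown because PU.1, the transcription factor encoded by Spi1, acts on many genes of macrophages, and because these genes were all lower in the IP samples. RefSeq promoters (GRCm38.p6) were at hand for 6 of the 9 genes, and the 250 bases before each start were searched on both strands for GAGGAA, which reads TTCCTC on the other strand and is the core of a PU.1 site. C1qb, C1qc, Aif1 and Trem2 held a match, Cx3cr1 and P2ry12 did not, and 23.3% of the 32851 promoters searched held one. A match of 6 letters is a description and not a binding site. Each line is written 5′ to 3′ on the strand of the gene, with the match in capitals.
C1qb, chr4:136886201-136886300, minus strand: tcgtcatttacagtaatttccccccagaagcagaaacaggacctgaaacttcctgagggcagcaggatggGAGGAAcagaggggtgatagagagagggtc
C1qc, chr4:136893066-136893154, minus strand: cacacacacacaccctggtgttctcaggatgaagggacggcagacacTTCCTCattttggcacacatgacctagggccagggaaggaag
Trem2, chr17:48346301-48346400, plus strand: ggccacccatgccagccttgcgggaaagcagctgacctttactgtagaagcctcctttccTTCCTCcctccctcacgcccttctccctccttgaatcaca

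The first question was whether the level of these genes in whole NAc differed between the stress groups. None of the 9 passed an unadjusted p of 0.05 in susceptible against control inputs, a threshold that 4.47% of 14820 genes passed, and no gene at all passed after adjustment. The same held for resilient against control inputs (0 of 9, with 3.23% of all genes) and for susceptible against resilient inputs (0 of 9, with 5.54%). In bulk tissue a change in the number of microglia and a change in RNA per microglial cell cannot be told apart, so these levels describe their product.

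Among the receptors, Cx3cr1 ran from 48.4 to 55.0 CPM in the 6 control inputs (median 50.8), from 45.0 to 57.7 in the resilient inputs (median 50.1) and from 45.4 to 54.0 in the susceptible inputs (median 48.3). The 3 groups covered nearly the same range, and the susceptible level differed from control by −0.06 on the log2 scale (95% interval −0.18 to 0.06). P2ry12 measured 33.0 to 38.9 CPM in control (median 35.8), 31.9 to 41.6 in resilient (median 33.2) and 29.3 to 37.6 in susceptible inputs (median 33.6). Its difference of −0.10 ± 0.06 (log2, SE) was the most negative of the 9 in susceptible against control inputs, with an interval of −0.23 to 0.03 (adjusted p = 0.979; exact permutation p = 0.12, two-sided, labels exchanged within lines). Csf1r, the most counted of the 9, had means of 84.7 ± 4.5, 85.7 ± 7.55 and 84.8 ± 4.56 CPM in control, resilient and susceptible inputs (SD, n = 6 each), and its susceptible difference of 0.01 had an interval of −0.10 to 0.11. Trem2 had means of 5.90 ± 0.879, 6.33 ± 1.18 and 5.89 ± 0.232 CPM, with a susceptible difference of 0.00 ± 0.11. For Cx3cr1, Csf1r and P2ry12 the intervals were narrower than those of Aif1.

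Tmem119 had means of 15.5 ± 1.5 CPM in control, 16.5 ± 1.16 in resilient and 15 ± 1.5 in susceptible inputs (SD, n = 6 each). Susceptible against resilient gave −0.14 ± 0.08 for it (adjusted p = 0.901; exact permutation p = 0.1). Of the C1q chains, C1qb measured 23.0 to 26.2 CPM in control (median 24.7), 24.3 to 29.6 in resilient (median 25.9) and 21.8 to 28.8 in susceptible inputs (median 26.1). Its resilient difference of 0.12 ± 0.06 (log2, SE) had an adjusted p of 0.999 and an exact permutation p of 0.055, the smallest of the 27 such p-values for these genes and inputs (all but 1 at 0.1 or more, and 0.005 is the smallest this design allows). C1qa had means of 26.0 ± 2.40, 27.9 ± 3.37 and 26.9 ± 1.77 CPM and C1qc of 27.5 ± 1.59, 28.5 ± 3.89 and 28 ± 1.84 CPM in the same order. One pool weighed on these resilient values: the D1 Res 2 input was the highest of the 18 inputs for 5 of the 9 genes, and without it the resilient difference was 0.10 for C1qb, 0.02 for C1qa and −0.03 for C1qc.

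Aif1 was the least counted of the 9, at 3.58 ± 0.736 CPM in control, 3.69 ± 0.558 in resilient and 3.69 ± 0.749 in susceptible inputs (SD, n = 6 each). Its susceptible difference of 0.05 ± 0.16 had an interval of −0.28 to 0.39, the widest of the 9. Summed over the 9 genes the inputs held 275 ± 12.3 CPM in control, 280 ± 23.6 in resilient and 272 ± 16.2 in susceptible pools. The single pools ran from 262 to 293, from 256 to 323 and from 251 to 296, so the groups overlapped widely. The median difference of the 9 genes was 0.01 in susceptible and 0.05 in resilient against control, beside −0.00 and 0.00 over all genes.

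**Figure D1:**
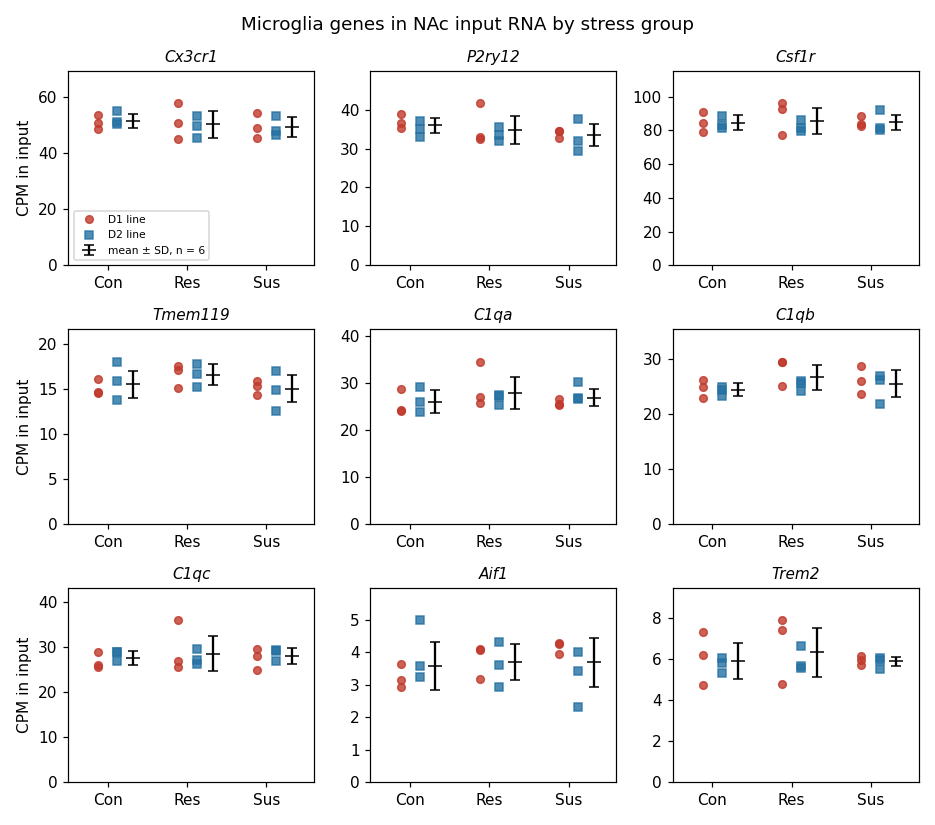
Each panel plots 1 of the 9 microglia genes in the 18 inputs, with TMM-scaled CPM on the vertical axis from 0 and the stress group on the horizontal axis; points are pools of 2 mice, marked by Cre line, and bars give the mean and SD of 6 pools. The 3 groups overlap in every panel, and the highest C1qa point, at 34.6 CPM, is the D1 Res 2 input.

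Further lists of genes were described in the same inputs. Of 14 more genes of resting microglia, 0 passed an unadjusted p of 0.05 in either stressed group against control. Of the 14 genes known from activated microglia 10 could be tested, and 1 was lower in each comparison: Cd68, a lysosomal protein of phagocytes, fell by 0.30 on the log2 scale in susceptible inputs (adjusted p = 0.979, exact permutation p = 0.01), and Lpl, a lipoprotein lipase, fell by 0.17 in resilient inputs (adjusted p = 0.999, exact permutation p = 0.08). The highest counts of Cd68 were 339 in inputs and 271 in IP samples, those of Lpl 1501 and 5408. Their changes in inputs therefore cannot be assigned to microglia alone. Only 4 of the 10 cytokine and inflammasome genes had enough counts to be tested, and 0 passed in these 2 comparisons. Neither did any of the 8 tested of 9 other complement genes or the 3 tested of 6 border macrophage genes. Among the 6 ligands and signalling partners of the receptors, Irf8, a transcription factor of myeloid cells, was higher in susceptible inputs by 0.25 ± 0.12 (adjusted p = 0.979, exact permutation p = 0.045). Cx3cl1 gave −0.07 ± 0.06 there (exact permutation p = 0.26), and Tyrobp gave 0.19 ± 0.11 in resilient inputs (exact permutation p = 0.11). In susceptible against resilient inputs Tyrobp, Cd68 and Serping1, a complement inhibitor, were lower, at −0.26 ± 0.11, −0.20 ± 0.08 and −0.66 ± 0.28, at an unadjusted p of 0.05, and the endothelial receptor Flt1 was higher by 0.20 ± 0.08 (adjusted p = 0.901 for each). None of these genes passed the adjusted threshold.

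Markers of other cells were read beside these values. Of the 9 blood cell genes only Alas2, the haem synthesis enzyme of red cell precursors, had enough counts for a test. The haemoglobin genes of this list had 0 counts in every input and IP sample. Why was not tested, so this is not read as absence of their RNA. Alas2 was higher by 2.02 ± 0.37 in susceptible inputs (adjusted p = 0.226) and by 1.74 ± 0.37 in resilient inputs (adjusted p = 0.999). The exact permutation p was 0.005 in both, the smallest it can be. Alas2 made up most of the summed blood list (mean 3.08 of 3.33 CPM over the 18 inputs), so the sum is no separate result. This sum of the blood list measured 0.903 to 1.68 CPM in control, 2.93 to 6.32 in resilient and 1.94 to 8.74 in susceptible inputs. No stressed pool reached down to the control range. The part of the blood list in the levels of the microglia genes was not tested. Of the 6 astrocyte genes 1 was lower in each stressed group (Slc1a3, a glutamate transporter, −0.10 in susceptible and −0.11 in resilient inputs), and 0 of 6 oligodendrocyte, 0 of 4 endothelial and 0 of 8 MSN genes passed against control.

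Inputs of the D2 line did not pass against those of the D1 line for any of the 9 genes at an adjusted p of 0.05, a threshold that 0.0202% of genes passed. Whether the susceptible difference itself differed between the lines was asked with an interaction term. Only Aif1 passed, at −0.65 ± 0.30 for D2 minus D1 (1 of 9 at an unadjusted p of 0.05, with 1.91% of all genes; adjusted p = 1). In the D1 line its control inputs measured 3.63, 3.14 and 2.92 CPM and its susceptible inputs 4.26, 3.93 and 4.24 CPM, without overlap. In the D2 line the control inputs measured 3.57, 4.98 and 3.25 CPM and the susceptible inputs 3.41, 4.01 and 2.30 CPM, with overlap. Leaving out 1 library at a time lost the call for 9 of the 18 inputs, namely D1 Con 2 and 3, D1 Res 1, D1 Sus 1, 2 and 3, D2 Con 2, D2 Res 2 and D2 Sus 3. For resilient against control, 0 of 9 passed the same test (2.34% of all genes).

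The second question was how much microglial RNA the neuronal IP samples still held. All 9 genes were lower in D1 IP samples than in D1 inputs at an adjusted p of 0.05, where 42.7% of 15404 genes were lower, and 8 of the 9 were more than 8-fold lower, where 5.09% of genes were. The D2 line gave the same counts, 9 of 9 lower (44.9% of all genes) and 8 of 9 more than 8-fold lower (4.32%). The median difference of the 9 genes was −4.60 on the log2 scale in the D1 line and −4.07 in the D2 line, beside −0.04 and −0.08 over all genes. For each gene the highest of the 28 IP samples lay below the lowest of the 18 inputs. The share of all genes with such a gap was not computed.

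Cx3cr1 measured 2.82 to 6.40 CPM in the 13 D1 IP samples (median 3.96) and 4.23 to 7.30 in the 15 D2 IP samples (median 5.79), against means of 50.5 ± 4.16 and 50.2 ± 3.26 CPM in the 9 inputs of each line. It was 12.3-fold lower in D1 IP samples (log2 −3.62 ± 0.09, adjusted p = 1.42e-31), which left 8.12% of the input level (95% interval 7.17 to 9.19). In D2 IP samples it was 9.02-fold lower (log2 −3.17 ± 0.08, adjusted p = 3.35e-31), which left 11.1%. P2ry12 fell furthest of the 9 in D1 IP samples. It measured 0.482 to 1.63 CPM there (median 0.746) and 0.940 to 2.35 in D2 IP samples (median 1.30), against 35.5 ± 3.08 and 33.9 ± 2.68 CPM in the inputs. This was 41.2-fold lower in the D1 line (log2 −5.36 ± 0.13, adjusted p = 1.27e-31) and 24.1-fold lower in the D2 line (log2 −4.59 ± 0.11, adjusted p = 1.55e-31).

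Csf1r stood at 4.70 ± 0.929 CPM in D1 and 5.85 ± 0.968 in D2 IP samples, against 86.2 ± 6.39 and 83.9 ± 4.23 CPM in the inputs, an 18.8-fold and a 14.7-fold difference. Tmem119 was 24.3-fold lower in D1 and 16.8-fold lower in D2 IP samples. The C1q chains fell together: C1qa was 26.0-fold, C1qb 32.1-fold and C1qc 30.5-fold lower in D1 IP samples, and 23.6-fold, 25.9-fold and 27.4-fold lower in D2 IP samples. Trem2 was 12.8-fold and 11.8-fold lower, down to 0.530 ± 0.283 and 0.511 ± 0.252 CPM, the lowest level of the 9 in CPM. The genes therefore did not all lose the same fraction of their level.

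Aif1 was the exception to the 8-fold mark. It measured 0.488 to 1.44 CPM in D1 IP samples (median 0.826) and 0.512 to 1.67 in D2 IP samples (median 1.13), against 3.71 ± 0.520 and 3.60 ± 0.782 CPM in the inputs. It was 3.85-fold lower in the D1 line (log2 −1.94 ± 0.16, adjusted p = 3.09e-14) and 3.29-fold lower in the D2 line (log2 −1.72 ± 0.16, adjusted p = 3.11e-13), leaving 26.0% (20.7 to 32.6) and 30.4% (24.5 to 37.8) of the input level. Its highest IP sample, at 1.67 CPM, came close to its lowest input, at 2.30 CPM. As a share of the summed CPM of the 9 genes, Aif1 went from 1.32% in inputs to 6.66% in D1 and 5.98% in D2 IP samples, while P2ry12 went from 12.6% to 5.94% and 7.60%. Per kilobase of the principal transcript Aif1, the lowest of the 9 in the inputs, was the highest of the 9 in both sets of IP samples, at 1.13 CPM per kb in D1 and 1.29 in D2, where Cx3cr1 at 1.27 and Csf1r at 1.24 were close to it. With the length of all exons Aif1 stood at 0.644 in D1 and 0.735 CPM per kb in D2 IP samples, below C1qa, Cx3cr1, Csf1r and C1qb, so its rank depends on the gene model.

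**Figure D2:**
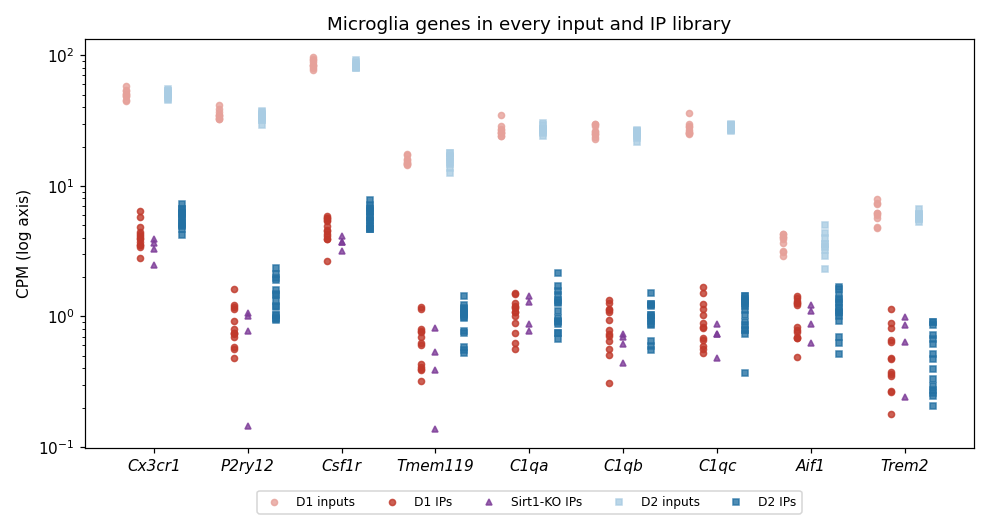
The 9 genes stand along the horizontal axis, with TMM-scaled CPM on a vertical log axis. For each gene the inputs and IP samples of each line and the Sirt1-KO IP samples stand side by side in separate colours. Each point is 1 library of 2 pooled mice. Within each gene every IP point lies below every input point, by the widest margin for P2ry12 and the C1q chains. The margin is narrowest for Aif1, whose highest IP sample is at 1.67 CPM and lowest input at 2.30 CPM.

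The depletion held within each stress group taken alone. In control, resilient and susceptible pools of both lines 9 of 9 genes were lower, and 8 of 9 more than 8-fold. Shares over all genes were not computed within single stress groups. Some values lay close to the 8-fold mark, such as Trem2 at −3.11 in D1 control and Cx3cr1 at −3.10 in D2 susceptible pools. Aif1 gave −1.63, −2.17 and −2.01 in D1 control, resilient and susceptible pools and −1.87, −1.97 and −1.26 in those of the D2 line.

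Genes that act with these receptors showed both directions. The ligand Cx3cl1, which neurons make, was higher in D1 IP samples than in inputs by 1.18 ± 0.04 (1404.8 ± 61.6 CPM in 13 IP samples against 604 ± 41.1 in 9 inputs) and in D2 IP samples by 1.27 ± 0.04, opposite to its receptor Cx3cr1. Il34 was higher by 0.43 ± 0.06 and 0.36 ± 0.06, whereas Csf1, the other ligand of Csf1r, was lower, at −0.98 ± 0.11 and −1.55 ± 0.11. Tyrobp, the adaptor of Trem2, gave −5.11 and −4.82, Spi1 −4.52 and −3.77, and Irf8 −2.03 and −1.14, all on the log2 scale and all past the adjusted threshold.

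Of the 14 further genes of resting microglia, 14 were lower in both lines (median −4.19 in D1 and −3.84 in D2). Abundant genes among them ranged widely. Ctss, a lysosomal protease, gave −5.49 ± 0.13 in D1 and −5.28 ± 0.12 in D2 IP samples, and Sall1, a transcription factor of microglia, −1.71 ± 0.09 and −2.0 ± 0.09. Of the 14 genes of activated microglia 11 were tested, 9 were lower and 2 higher in each line (median −3.50 and −2.33). Those higher were Ctsb, a lysosomal protease of many cell types, by 0.49 ± 0.03 and 0.30 ± 0.03, and Lpl, by 1.52 ± 0.06 and 1.77 ± 0.06, while Apoe, a lipid carrier made by astrocytes as well, gave −3.50 ± 0.12 and −4.61 ± 0.11.

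All 4 tested cytokine genes were lower (median −3.29 and −2.39), as were 8 of the 9 other complement genes in each line (−3.72 and −2.97) and, of the 4 tested border macrophage genes, 4 in D1 and 3 in D2 IP samples (−2.98 and −2.87). Among them Il18 gave −0.87 ± 0.08 in D1 IP samples, C4b −3.00 ± 0.12 and the mannose receptor Mrc1 −3.47 ± 0.29. The blood gene Alas2 was lower in both lines. Other cell types were depleted as well, with 6 of 6 astrocyte genes (−3.03 and −3.49), 6 of 6 oligodendrocyte genes (−2.97 and −3.24) and 4 of 4 endothelial genes (−3.87 and −3.51) lower. MSN genes went the other way, with 8 of 8 higher in D1 and 6 of 8 higher and 2 lower in D2 IP samples (medians 1.05 and 1.74). The lines differed for the receptors that name them, with a D2 minus D1 difference of −1.16 ± 0.11 for Drd1 and 1.47 ± 0.10 for Drd2.

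**Figure D3:**
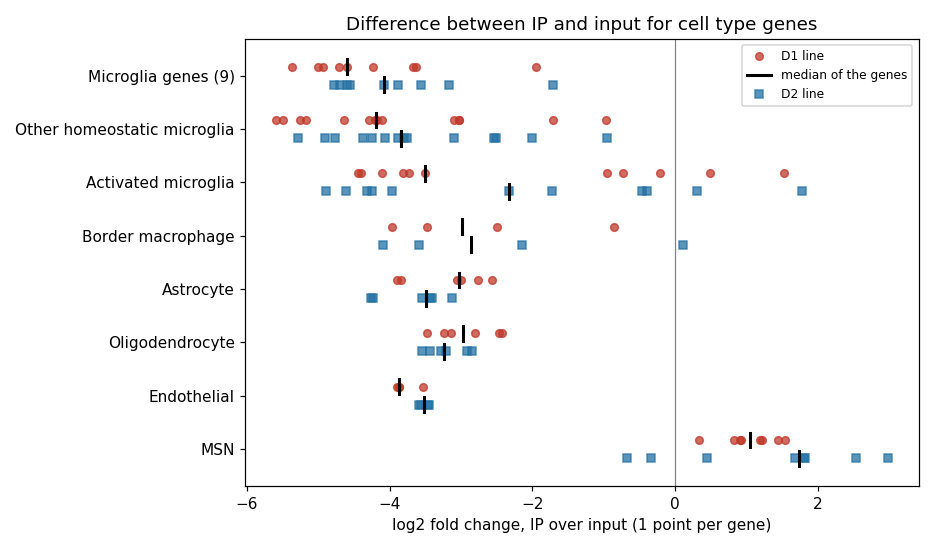
The horizontal axis gives the log2 difference of IP samples against inputs and the vertical axis the gene lists, with the D1 and D2 lines side by side; each point is 1 gene and the bars mark list medians. The 9 microglia genes centre on −4.60 in D1 and −4.07 in D2, with Aif1 nearest to 0, and MSN genes lie mostly above 0.

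Per the labels 9 inputs per line had an IP from the same pool of mice. The level left in the IP was therefore also computed pair by pair, as a percentage of the CPM in its own input. For most inputs another IP sample of the group deviated more like that input, so this pairing rests on the labels. Summed over the 9 genes, 5.13 ± 0.818% was left in the D1 line (3.55 to 6.30) and 6.67 ± 0.483% in the D2 line (6.12 to 7.64; SD, n = 9 pairs each). In these pairs the ranges of the lines met only at their edges. Over all IP samples the summed levels overlapped more widely. The 13 D1 IP samples held 11.5 to 19.5 CPM and the 15 D2 IP samples 15.9 to 22.8 CPM. By gene, P2ry12 kept 2.41 ± 0.771% in D1 and 4.20 ± 1.19% in D2 pairs, C1qb 3.06 ± 1.24% and 3.81 ± 0.876%, and Cx3cr1 8.23 ± 1.64% and 10.9 ± 1.57%. Aif1 kept 11.4 to 37.9% in D1 pairs (median 25.0) and 17.5 to 70.6% in D2 pairs (median 23.5). It had the highest percentage of the 9 genes in 17 of the 18 pairs, Trem2 in the remaining 1, and it stood above Cx3cr1 in 18 of 18.

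Over the same pairs the astrocyte list kept 10.8 ± 3.70% in D1 and 7.53 ± 1.53% in D2 pairs, the oligodendrocyte list 14.1 ± 2.79% and 11.9 ± 2.49%, the endothelial list 7.34 ± 1.57% and 8.73 ± 2.20%, and the border macrophage list 26.1 ± 18.7% and 30.2 ± 11.6%. Within a line, pairs that kept more of the microglia genes also kept more of the astrocyte genes (Pearson r = 0.82 in D1 and 0.81 in D2) and of the oligodendrocyte genes (0.88 and 0.73). For endothelial genes r was 0.89 in D1 and 0.22 in D2. Each of these rests on 9 pairs whose values share libraries and scaling, and pooled over the 18 pairs of both lines they were 0.03, 0.17 and 0.60. The border macrophage genes did not follow, at −0.02 in D1, −0.28 in D2 and 0.05 pooled.

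**Figure D4:**
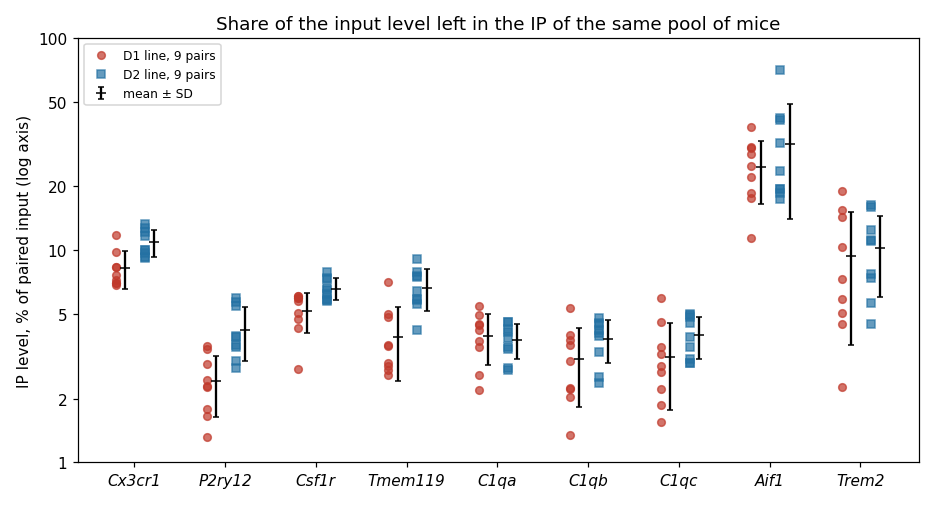
For each of the 9 genes the vertical axis gives the CPM in an IP sample as a percentage of that in its paired input. The pairs share a 2-mouse pool per the labels. D1 and D2 pairs are in separate colours, with 9 pairs each, and bars give the mean and SD. Aif1 is highest in 17 of 18 pairs and reaches 70.6%, and P2ry12 in D1 pairs, at 2.41 ± 0.771%, and C1qa in D2 pairs, at 3.76 ± 0.704%, have the lowest means.

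**Figure D5:**
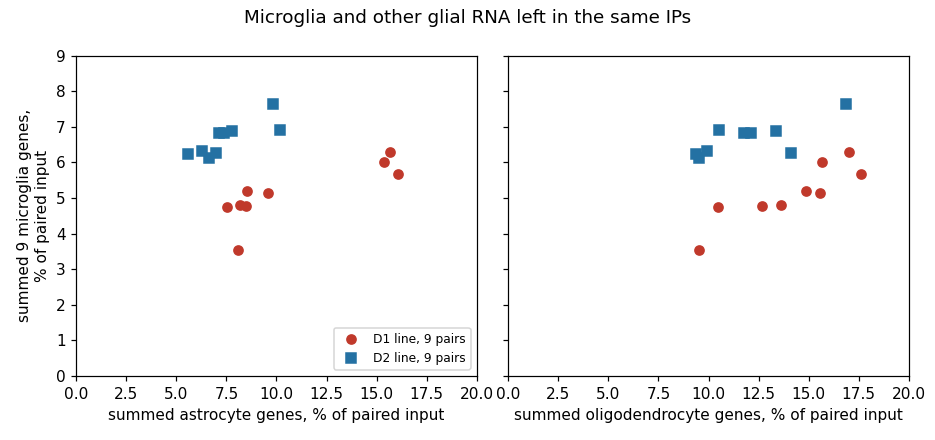
The horizontal axis gives the summed astrocyte or oligodendrocyte genes and the vertical axis the summed microglia genes left in an IP sample. Both are percentages of the paired input, and each point is 1 of 9 D1 or 9 D2 pairs. The points of each line rise together, and the D2 points, at 6.12 to 7.64% on the vertical axis, are shifted towards more microglial and less astrocytic RNA than the D1 points.

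The difference between the lines was tested as an interaction, the IP against input change in D2 minus that in D1. At an adjusted p of 0.05 it passed for 3 of the 9 genes, all with more left in D2 IP samples, where 11.8% of all genes passed in that direction and 25.5% in either. These were P2ry12 (0.77 ± 0.19, adjusted p = 0.00192), Cx3cr1 (0.45 ± 0.12, adjusted p = 0.00502) and Csf1r (0.35 ± 0.12, adjusted p = 0.0248). All 3 are receptors of the microglial surface, but Trem2, also a receptor, gave 0.11 and did not pass. P2ry12, Cx3cr1 and Csf1r passed in each of the 46 fits that left out 1 library. Tmem119 gave 0.53 ± 0.21 (adjusted p = 0.0532) and lay at the edge of the threshold. It passed in 5 of 6 alternatives and in 19 of 46 fits that left out 1 library, and with the IP and input of the same pool as a block it gave 0.78 with an adjusted p of 0.00707, which made 4 of 9. The values of all 9 lay above 0 (median 0.31), but C1qa gave −0.01 with that block and Trem2 went down to −0.03 without 1 of the libraries, so no direction is given for these. Among the further genes of resting microglia 12 of 14 lay above 0 and 4 passed, Gpr34 (0.82 ± 0.28) and P2ry13 (0.80 ± 0.26), which are receptors for a lysophospholipid and for ADP, the lectin Siglech (0.52 ± 0.19) and the lysosomal membrane protein Laptm5 (0.45 ± 0.16). Of the receptors’ partners, Irf8 gave 0.89 ± 0.19 and Csf1 −0.57 ± 0.15. Astrocyte genes differed in sign from these, with 0 of 6 above 0, a median of −0.46 and 2 lower past the threshold. Other lists also kept more in D2 pairs on average, with overlap. These were the endothelial list (8.73 ± 2.20% against 7.34 ± 1.57% in D1) and the border macrophage list (30.2 ± 11.6% against 26.1 ± 18.7%). The oligodendrocyte list kept less (11.9 ± 2.49% against 14.1 ± 2.79%).

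Compared directly, the fitted D2 minus D1 IP difference had a median of 0.25 over the 9 genes. For Trem2 it was 0.04, from −0.11 to 0.14 with 1 library left out, and its mean CPM was the lower in D2 IP samples, so no direction is given for it. Under the rule of a fold change over 1.5 with an adjusted p of 0.05, which 7.66% of 14224 genes met, only P2ry12 passed (0.72 ± 0.19, adjusted p = 0.00305). Without the fold limit 4 of 9 passed, where 21.3% of all genes did so in this direction and 40.8% in either: P2ry12, Cx3cr1 (0.46 ± 0.10, adjusted p = 0.000758), Csf1r (0.33 ± 0.11, adjusted p = 0.0133) and Tmem119 (0.56 ± 0.20, adjusted p = 0.0298). The sets overlapped, with 4 of the 15 D2 IP samples above the highest D1 IP sample for P2ry12, 3 for Cx3cr1, 7 for Csf1r and 2 for Tmem119. Astrocyte genes were lower in D2 IP samples for 6 of 6, and oligodendrocyte genes for 4 of 6, at the same adjusted threshold. The part of the Cre line, of the amount of neuronal RNA pulled down and of unspecific binding in these differences was not tested.

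The third question was whether the residue in IP samples moved with stress. Of the 9 genes 0 passed an unadjusted p of 0.05 in D1 susceptible against control (5.34% of all genes), D1 susceptible against resilient (4.23%), D2 susceptible against control (3.68%), D2 resilient against control (3.02%) and D2 susceptible against resilient IP samples (1.66%). In D1 resilient against control IP samples 1 of 9 passed (2.11% of all genes). This was Trem2, at −1.27 ± 0.48 on the log2 scale (adjusted p = 1, exact permutation p = 0.0571). Its counts were 10, 29, 26 and 12 in control, 4, 8, 10 and 7 in resilient and 20, 7, 17, 17 and 10 in susceptible D1 IP samples, that is 0.363 to 1.14, 0.179 to 0.373 and 0.268 to 0.813 CPM. The resilient and control values overlapped at the edge, and without D1 Con 2 the difference was −0.97 and no longer passed. C1qa gave 0.53 ± 0.32 in the same comparison (adjusted p = 1). Its D1 control IP samples measured 1.02, 0.745, 0.895 and 1.08 CPM and its resilient ones 1.47, 1.21, 1.16 and 1.52 CPM, without overlap, which gives an exact permutation p of 0.0286, the smallest for 4 against 4 and 1 of 9 such tests. For a better counted gene, Cx3cr1, the D1 IP samples held 3.77 ± 0.291 CPM in 4 control, 4.43 ± 0.935 in 4 resilient and 4.39 ± 1.38 in 5 susceptible pools, and the D2 IP samples 5.63 ± 0.960, 5.78 ± 0.920 and 5.76 ± 0.870 CPM in 5 pools each. Alas2 was higher in the stressed IP samples as in the inputs, by 2.34 and 1.64 in D1 and by 2.52 and 1.48 in D2 susceptible and resilient pools.

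The last comparison set the 4 IP samples labelled Sirt1-KO against the 4 D1 control IP samples. Sirt1 itself, a deacetylase, was counted 432, 502, 415 and 220 times in the libraries labelled Sirt1-KO (16.0, 17.1, 14 and 10.7 CPM) and 387, 453, 458 and 384 times in D1 control IP samples (14, 17.8, 15.8 and 15.3 CPM). These values overlap, and a count over the whole gene does not separate a floxed exon from the rest, so they do not check the label. None of the 9 genes passed a fold change over 1.5 with an adjusted p of 0.05, which 0.749% of 13626 genes met, nor the adjusted p alone, which 1.66% met. Cx3cr1 measured 3.62, 2.49, 3.30 and 3.95 CPM in libraries labelled Sirt1-KO and 3.52, 4.11, 3.54 and 3.91 CPM in D1 control IP samples. Csf1r measured 4.14, 3.69, 3.74 and 3.17 CPM against 4.28, 3.92, 4.54 and 5.91 CPM, a difference of −0.32 ± 0.16 (adjusted p = 0.351). P2ry12 measured 0.775, 1.06, 1.01 and 0.146 CPM against 0.580, 1.14, 0.482 and 0.919 CPM. The values overlapped for Cx3cr1 and P2ry12, and for Csf1r the highest library labelled Sirt1-KO, at 4.14 CPM, lay above the lowest control, at 3.92 CPM. For these levels the Sirt1-KO libraries were scaled together with the D1 control libraries only, and the D1 control IP samples with all 46 libraries. The median of the 9 was −0.15, beside −0.54 for astrocyte, −0.37 for oligodendrocyte and −0.35 for MSN genes. These libraries are listed with another set of processing tools and may have been made apart from the rest, so genotype and preparation cannot be told apart.

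Set against D1 control inputs, the libraries labelled Sirt1-KO showed the same depletion, with 9 of 9 genes lower (35.7% of 14720 genes) and 8 of 9 more than 8-fold lower (5.71%). P2ry12 was 47.6-fold lower (−5.57 ± 0.27) and Cx3cr1 gave −3.97 ± 0.12. Aif1 was again the gene that kept most, at −1.79 ± 0.27 (adjusted p = 3.78e-05) or 28.8% of the control input. Trem2 gave −3.14 ± 0.36, an 8.79-fold difference close to the 8-fold mark. Its levels were 0.997, 0.853, 0.640 and 0.244 CPM in these libraries. The same D1 control inputs also enter the D1 comparison, so the likeness of both depletions is not independent of them. Summed over the 9 genes the libraries labelled Sirt1-KO held 11.5 to 13.7 CPM and the D1 control IP samples 12.7 to 16.2 CPM.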

How the data were processed

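RNA was taken from 46 IP and input libraries and 4 libraries labelled Sirt1-KO. The deposited values are raw counts per gene, whole numbers with no normalisation. Per the labels and the submitters' processing notes, the authors used cutadapt, FastQC, STAR, HTSeq (not listed for the Sirt1-KO libraries) and mm10, and DESeq2 for their own tests. Versions and strand setting are not given in the sources used here. The 5 entries that name no gene (21.5 ± 2.83% of IP and 37.8 ± 1.16% of input counts) were left out, as were 2 columns with no matching sample.

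CPM and tests were computed from these counts with edgeR 4.0.16 (TMM, filterByExpr with a minimum count of 10, quasi-likelihood test, Benjamini-Hochberg adjustment) in R 4.3.3, and checked on simulated data. DESeq2 1.42.0, other scalings and filters, and leaving out each library were the alternatives. The inputs' stress comparisons had line as a covariate. Single genes in small groups also got an exact two-sided permutation test of mean CPM, added after the data were seen. Thresholds followed the study: unadjusted p for stress, adjusted p with fold change over 1.5 for D2 against D1 IP samples. The 9 genes and the lists of further microglia, partner, blood and other cell genes were chosen with earlier results of these data known. The text names the 9 genes, Sirt1, Cx3cl1, Csf1, Il34 and Tyrobp, up to 3 of the most abundant genes of each further list, and genes most like the 9 over inputs; an item that this rule names is not reported here. Further names (Irf8, Spi1, Cd68, Lpl, Serping1, P2ry13, Gpr34, Siglech, Laptm5, Drd1, Drd2) were chosen after their values were seen. IP and input of the same number come from the same pool per the labels. Their deviations from the group means correlated at −0.27 to 0.60 over 18 pairs. For most inputs another IP sample of the group correlated better, so the counts do not bear out this pairing. The 76 replicate pairs differed by 3.60 to 104 in chi-square per gene, so none was 1 library deposited again. GENCODE M21 gave positions and lengths.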

Additional observations from a re-analysis of the deposited data

Results flagged for a closer look

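Among the 90 groups of 4 to 6 pools that were examined, 8 held a pool far from the others by Dixon's ratio, and chance alone marks about 1 in 20 groups. In the inputs these were C1qa in resilient pools (34.6 CPM in D1 Res 2, next 27.4), C1qa in susceptible pools (30.3 CPM in D2 Sus 1, next 26.8) and Aif1 in control pools (4.98 CPM in D2 Con 2, next 3.63). In the IP samples they were Cx3cr1 in D2 Sus 3 (4.23 CPM, next 5.91), P2ry12 in D1 Res 4 (1.63 CPM, next 0.804), Tmem119 in D1 Con 3 (1.14 CPM, next 0.431) and in D1 Sus 3 (0.410 CPM, next 0.699), and Aif1 in D1 Res 3 (1.23 CPM, next 0.759).

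Another 4 values differed between the lines by an interaction test: the susceptible against control difference of Aif1 in inputs (−0.65, D2 minus D1, at an unadjusted p), and the IP against input change of P2ry12 (0.77), Cx3cr1 (0.45) and Csf1r (0.35).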

How the results depend on the processing

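The depletion in D1 and D2 IP samples gave 9 of 9 genes lower and 8 of 9 more than 8-fold lower under every alternative and with any 1 of the 46 libraries left out. Counts of the 9 genes called in the stress comparisons moved between 0 and 2. In inputs, susceptible against control gave 1 (P2ry12) with total counts only and with the replicate number as a block, resilient against control 1 (C1qb) with relative log expression size factors, with only the compared groups and with the block, and susceptible against resilient 1 (Tmem119) with total counts and with the block; leaving out a library gave 0 to 1 in each. P2ry12 and Tmem119 passed in 1 of these 18 fits each (P2ry12 at −0.15 without D2 Sus 1), C1qb in 8 of 18 (without D1 Con 2, D1 Res 3, D1 Sus 2 or 3, D2 Con 3, D2 Res 2, D2 Sus 1 or 3). The Aif1 line difference gave 0 with total counts and 0 to 1 leaving out a library. In D1 IP samples, susceptible against control gave 1 (Cx3cr1) with the block (0 to 1 leaving out a library). Resilient against control gave 0 with a mean of at least 50 counts, with only the compared groups and with adjusted p (0 to 2); Trem2 was filtered out and so not tested in the first 2, and passed in the 5 alternatives that tested it at an unadjusted p. Susceptible against resilient gave 1 (Trem2) with only the compared groups and 2 (C1qa and Trem2) with the block (0 to 1). D2 susceptible against resilient gave 0 to 1. D2 against D1 IP samples gave 0 with a mean of at least 50 counts, where P2ry12 was filtered out (it passed in 4 of 4 others), and 4 with no fold limit (1 to 2 leaving out a library), the IP against input line difference 3 to 4, and Sirt1-KO against input 7 to 8 past 8-fold. The causes were not tested. Between pools of different groups with the same replicate number, 8 of 18 input, 10 of 27 IP and 0 of 3 Sirt1-KO correlations exceeded 0.1. Pools with different numbers were not compared, so these values do not decide whether the numbers pair pools. Total-count scaling moved the median of all genes to −0.23 (D1) and −0.21 (D2) in IP against input and to −0.29 for Sirt1-KO against input. In the inputs it moved to −0.07 for the D2 against the D1 line. For the susceptible against control difference, D2 minus D1, it moved to 0.12. Of 5230 recomputed gene values 206 had the other sign, none of them a called value that reversed. No limit of detection was computed for the residue in IP samples.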

Other observations

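Over the 18 inputs the 9 genes varied together only in part. The 36 pairs among them had a median Pearson r of 0.41, from −0.37 (C1qa with Aif1) to 0.76 (C1qa with C1qc), and 13 lay above 0.5. Among the genes most like the mean of the 9, out of 14811 genes outside the set, were Rpl10 (r = 0.815), a ribosomal protein, Tbc1d9b (0.812), Vsir (0.798), an immune checkpoint receptor, and Foxo4 (0.784), a transcription factor. These r values are descriptions over 18 libraries that share their scaling.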
